A study of Homo sapiens with 12 samples.

Results

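NCI-H2228 is a human lung adenocarcinoma cell line that carries an EML4-ALK fusion, and its course from attached culture to 7 days without attachment was followed in 3 of the 12 libraries of the study. These 3 libraries were chosen by their labels alone: attached, detached for 1 day, and detached for 7 days. The other 9 libraries hold the same 3 states of NCI-H2009, of LC-2/ad, which carries a RET fusion, and of HCC4006, which carries an activating EGFR deletion. Detached cells had been taken up with trypsin and kept in ultra-low attachment plates for 1 or 7 days, per the labels' protocols, and the attached library was the baseline at both times, so that trypsin, replating and time in culture cannot be told apart from the loss of attachment. All 4 lines were grown in RPMI-1640 with fetal bovine serum, and no drug or genetic change separates the states. Each state of a line is 1 library with no label for its day in attached culture. Differences within NCI-H2228 therefore carry no test. In such bulk samples, fewer cells of a type and less RNA per cell cannot be told apart.

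Cells of an epithelial tumour normally draw signals for growth and survival from the matrix they sit on, through integrins, focal adhesion kinases and the actin skeleton. Cells kept from attaching usually gather into clusters, and what they then transcribe depends on contacts between cells, on nutrients and on the oncogene that drives the line. Type 2 cells of the alveolus, from which many lung adenocarcinomas are thought to arise, make surfactant proteins and lipids and can present antigen on MHC class II.

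The NCI-H2228 libraries held 35089535 estimated counts in the attached state, 33577189 at day 1 and 34156358 at day 7, within the range of 31134420 to 41882024 over the 12 libraries. A single count stood for 0.0285 to 0.0298 CPM (counts scaled by library size) in these 3 libraries. The protein-coding genes of the mitochondrial genome took 0.356% of TPM (a level scaled by gene length and library size) in the attached library, 1.09% at day 1 and 0.895% at day 7, and the 50 highest genes took 21.3%, 24.4% and 23.5%. The fusion partner ALK, a receptor tyrosine kinase, stood at 7.81, 7.44 and 8.14 TPM in attached, day 1 and day 7 cells of NCI-H2228, and the other 9 libraries did not exceed 0.27 TPM, and EML4 stood at 40, 37.2 and 35.7 TPM in NCI-H2228. Neither partner went past 2-fold at any step. Of 12 leukocyte markers, PTPRC did not exceed 0.19 TPM and MS4A1 and TYROBP were at 0 in NCI-H2228. The summed level of these markers was 24.8, 61 and 21.2 TPM in the 3 states, most of it CD68 and CD14, and that of 12 fibroblast and endothelial markers was 34, 38.7 and 9.5 TPM, most of it FAP. Their part in the results was not tested.

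The first day held the larger step. A gene was counted when its log2 CPM, scaled with TMM factors and with a prior count of 2, differed by at least 1 between 2 libraries and its level reached 5 TPM in at least 1 of them. After 1 day, 1055 of 10477 genes (10.1%) were at least 2-fold higher than in attached cells and 793 (7.57%) at least 2-fold lower. After 7 days, 394 of 10419 genes (3.78%) were higher than in attached cells and 697 (6.69%) were lower. Between the 2 detached states, 362 of 10428 genes (3.47%) were higher at day 7 than at day 1 and 878 (8.42%) were lower. Past 4-fold, 223 genes were higher and 216 lower at day 1, against 45 higher and 208 lower at day 7, both relative to attached cells. NCI-H2228 therefore differed from its attached state in fewer genes at day 7 than at day 1, and the drop in the count was larger among higher genes. The split depends on the scaling: with library totals alone, 863 genes were higher and 1016 lower at day 1, and 528 higher and 742 lower between day 1 and day 7, and with log2(TPM + 1) the counts were 776 and 960, and 470 and 668. Under either of these scalings the median gene moved by -0.13 at day 1 and by 0.13 between day 1 and day 7, against 0.01 and 0.02 with TMM.

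**Figure D1:**
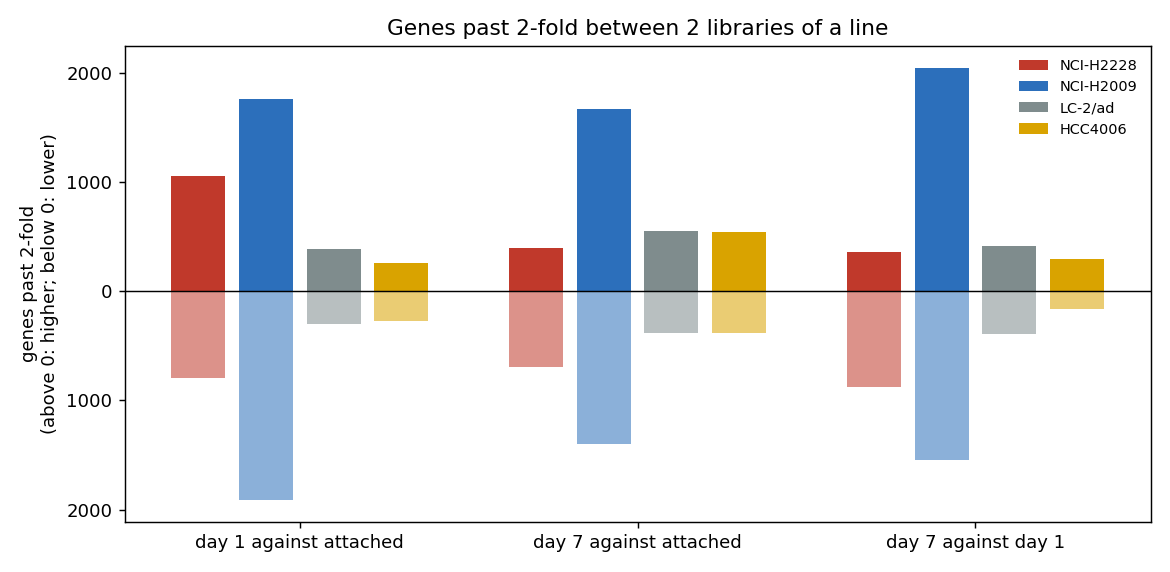
Bars give the number of genes past 2-fold between 2 libraries of a line at each step, higher genes above 0 and lower genes below it, with 1 library per state. NCI-H2228 stands at 1055 higher and 793 lower genes at day 1, below NCI-H2009 (1762 and 1912) and above LC-2/ad (388 and 303) and HCC4006 (253 and 270), and at 394 and 697 at day 7 against attached.

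Reading the 2 steps in order, 10747 genes reached 5 TPM in at least 1 NCI-H2228 library. Of these, 1127 differed past 2-fold by day 1 and then stayed within 2-fold of day 1, 513 of them higher and 614 lower. Another 721 differed past 2-fold by day 1 and past 2-fold the other way by day 7, of which 548 were first higher and 173 first lower. A further 27 genes went past 2-fold in the same direction at both steps, 8 higher and 19 lower, and 528 differed past 2-fold only between day 1 and day 7, 197 higher and 331 lower. Among early rises, 51.3% turned back in NCI-H2228, against 32.2% in NCI-H2009, 23.7% in LC-2/ad and 12.6% in HCC4006. Among early falls, the share was 21.5% in NCI-H2228, against 61%, 32.6% and 14.9%. Of all genes considered, 8.42%, 13.9%, 3.83% and 1.6% were lower past 2-fold from day 1 to day 7, in the same order of lines. The shares higher were 3.47%, 18.4%, 4% and 2.81%. The day 1 library enters both steps, so a value off in that library alone gives a change that turns back. These shares have no test. At 3-fold the NCI-H2228 shares were 43% and 8.78%.

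**Figure D2:**
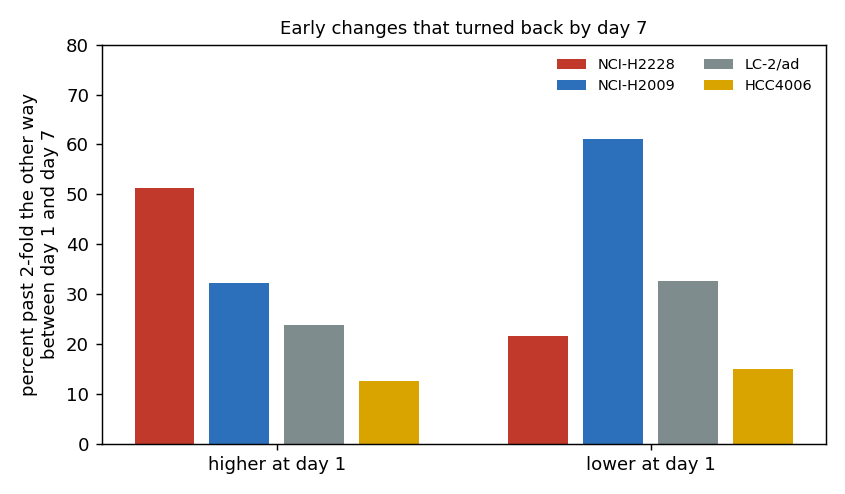
Bars give, for each line, the percent of genes past 2-fold at day 1 that went past 2-fold in the opposite direction between day 1 and day 7, for genes first higher (left) and first lower (right). NCI-H2228 has the highest share among early rises, 51.3%, and 21.5% among early falls. Of all its genes considered from day 1 to day 7, 8.42% were lower and 3.47% higher past 2-fold.

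The 10 largest early rises of NCI-H2228 were IL4I1, CST1, PIGR, CST4, CXCL17, TFF1, VNN1, CCL20, MUC20 and HP. IL4I1, a secreted amino acid oxidase, stood at 2.17 TPM in attached cells, 64.9 TPM at day 1 and 2.33 TPM at day 7. CST1, a salivary-type cystatin that inhibits cysteine proteases, had 8.79, 222 and 5.7 TPM, and CXCL17, a mucosal chemokine, had 0.992, 15.1 and 0.413 TPM in the same order. These 3 genes peaked at day 1 and were near or below their attached level at day 7. PIGR, the receptor that carries polymeric immunoglobulin across epithelia, stood at 1.59, 34.6 and 9.34 TPM between its other levels at day 7. Cystatin genes are near-identical in sequence, and reads may be shared between CST1 and CST4. In HCC4006 CST1 was highest at day 7, with 271, 857 and 7960 TPM in attached, day 1 and day 7 cells.

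The 10 largest early falls were FOSL1, H2AC14, HBEGF, MYBL1, EREG, MYBL2, AUNIP, NEIL3, MND1 and PKMYT1. FOSL1, an AP-1 transcription factor subunit induced by ERK signalling (chromosome 11, 65892049 to 65900573, minus strand, in the deposited table), stood at 614, 29.5 and 155 TPM in attached, day 1 and day 7 cells. Of the EGFR ligands HBEGF and EREG, both lowest at day 1, HBEGF had 27.3, 1.85 and 3.29 TPM, and EREG had 100, 7.45 and 29.1 TPM. MYBL2, a transcription factor of the cell cycle, had 97.9, 7.75 and 13.2 TPM. At day 7, FOSL1 and EREG were past 2-fold above their day 1 level, and HBEGF and MYBL2 were not.

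Cell cycle transcripts were low at both times. All 20 genes of a G2/M and mitosis list were at least 2-fold lower in NCI-H2228 at day 1 and at day 7, with a median log2 difference of -2.70 and -2.63 from attached cells. Over all 17395 genes past the count filter, 10.3% were lower past 2-fold at day 1 and 10.1% at day 7, 14.8% and 8.66% were higher, and the median was 0.04 and 0.03. Between day 7 and day 1, 13% of all genes were lower and 7.47% higher, and the mitosis list had a median of 0.19. The mitotic kinase PLK1 stood at 206, 21.7 and 26.6 TPM, and CDC20, which activates the anaphase-promoting complex, at 177, 17.2 and 23.6 TPM. KIF23, a motor protein of cytokinesis named here after its values were seen, stood at 40.7, 3.98 and 4.85 TPM. Of the same 20 genes, 16 were lower past 2-fold at day 1 in NCI-H2009, 11 in LC-2/ad and 18 in HCC4006, and 20, 10 and 15 at day 7. Of all genes reaching 5 TPM in these lines, 18.1%, 2.97% and 2.57% were lower past 2-fold at day 1. At day 7 the shares were 12.4%, 3.69% and 3.56%. KIF20A, another mitotic kinesin, was past 2-fold lower at each step in NCI-H2228, with 50, 9.32 and 3.93 TPM.

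Genes of DNA replication and the G1/S step were low in NCI-H2228 at both times. Of 18 such genes, 15 were lower past 2-fold at day 1 and 14 at day 7, with medians of -1.62 and -1.16. The medians at day 1 were 0.01 in NCI-H2009, -0.20 in LC-2/ad and -0.36 in HCC4006, and at day 7 they were -0.45, -0.31 and -0.75. Past 2-fold, 2 of the 18 genes were lower at day 1 in NCI-H2009, 0 in LC-2/ad and 1 in HCC4006, and 5, 0 and 4 at day 7, when 16, 17 and 18 of them lay below their attached level. Of all genes reaching 5 TPM in these lines, 18.1%, 2.97% and 2.57% were lower past 2-fold at day 1, and 12.4%, 3.69% and 3.56% at day 7. E2F1, the transcription factor that switches on S-phase genes, stood at 38.8, 5.12 and 9.6 TPM in NCI-H2228, against 22.5, 26.9 and 26.2 TPM in NCI-H2009, 26.9, 25.4 and 32.1 TPM in LC-2/ad, and 21.6, 21.2 and 16 TPM in HCC4006. CDC6, which loads the replicative helicase, stood at 53.1, 5.39 and 13.9 TPM in NCI-H2228. RRM2, a subunit of ribonucleotide reductase, had 159, 20.1 and 18.7 TPM, and UHRF1, which keeps DNA methylation through replication, had 101, 12.2 and 21.3 TPM.

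The test of this difference set the NCI-H2228 change against that of the other 3 lines in edgeR's quasi-likelihood model, in which the spread comes from those 3 lines and NCI-H2228 is assumed to vary like them. At day 1 it called 0 of 17395 genes (0%) at an adjusted p below 0.05, with 718 genes (4.13%) below an unadjusted p of 0.05 and a smallest adjusted p of 0.785. DESeq2's Wald test on the same design called 64 of 14359 genes (0.446%), 12 with a higher and 52 with a lower change in NCI-H2228. For POLA2, a subunit of DNA polymerase alpha, the edgeR log2 difference from the other lines was -2.32 (SE 0.37, adjusted p 0.785), and DESeq2 gave an adjusted p of 0.000112. For E2F1 the difference was -2.99 (SE 0.49, edgeR adjusted p 0.785; DESeq2 adjusted p 0.000248), for MYBL2 -2.97 (SE 0.54, edgeR adjusted p 0.785; DESeq2 adjusted p 0.00124). DESeq2 also called CDC45, DTL, EXO1, SKA3, MASTL, PKMYT1, NEIL3, AUNIP and E2F7, all lower in NCI-H2228. None of these genes passed in edgeR, whose fit had 4 residual degrees of freedom. They were named by their change or their p in these same libraries.

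Promoters of the 2 groups are shown because their members moved together. RefSeq promoter windows (build GRCh38.p14) were read for the 250 bases before each gene's start. The cell cycle homology element TTTGAA, which reads as TTCAAA on the opposite strand and is bound by the repressor complex of mitotic genes, was found on either strand in 10 of the 17 mitosis promoters that matched (58.8%), against 13.3% of all 35116 promoters. The E2F element TTTCCCGC (GCGGGAAA on the other strand) was found in 7 of the 15 replication promoters that matched (46.7%), against 1.39% of all promoters. The 2 elements were searched separately, and an overlap between them was not counted. PLK1 (chr16:23678639-23678888, plus strand) and CCNB2 (chr15:59104896-59105145, plus strand) are mitosis genes, and CDT1 (chr16:88803539-88803788, plus strand) and UHRF1 (chr19:4909251-4909500, plus strand) replication genes, and CCNB2 and CDT1 were picked after their values were seen. The sequences run 5′ to 3′ up to the base before the start, with the searched element in capitals. A match describes the letters only.
PLK1: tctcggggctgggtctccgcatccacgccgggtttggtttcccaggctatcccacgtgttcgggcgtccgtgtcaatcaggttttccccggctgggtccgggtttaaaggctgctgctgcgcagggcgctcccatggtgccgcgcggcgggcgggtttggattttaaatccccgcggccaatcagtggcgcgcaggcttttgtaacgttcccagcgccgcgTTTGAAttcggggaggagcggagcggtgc
CCNB2: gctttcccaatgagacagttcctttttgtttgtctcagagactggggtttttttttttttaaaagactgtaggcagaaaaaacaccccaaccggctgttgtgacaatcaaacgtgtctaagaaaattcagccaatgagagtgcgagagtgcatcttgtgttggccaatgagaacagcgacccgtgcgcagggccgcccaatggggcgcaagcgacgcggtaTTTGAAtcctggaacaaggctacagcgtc
CDT1: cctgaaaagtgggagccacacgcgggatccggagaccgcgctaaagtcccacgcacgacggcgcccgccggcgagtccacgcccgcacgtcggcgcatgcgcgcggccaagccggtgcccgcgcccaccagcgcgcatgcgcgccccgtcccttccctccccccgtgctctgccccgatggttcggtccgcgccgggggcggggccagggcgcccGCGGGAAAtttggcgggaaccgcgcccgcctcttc
UHRF1: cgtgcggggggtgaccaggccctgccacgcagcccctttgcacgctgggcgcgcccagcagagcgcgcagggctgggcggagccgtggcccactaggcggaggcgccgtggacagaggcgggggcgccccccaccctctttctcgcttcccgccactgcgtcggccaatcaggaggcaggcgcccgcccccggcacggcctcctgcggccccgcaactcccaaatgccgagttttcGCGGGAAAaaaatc
CCNB2, a mitotic cyclin, stood at 156, 21.2 and 27.2 TPM in attached, day 1 and day 7 cells of NCI-H2228, and CDT1, a licensing factor of replication origins, at 65.6, 17.8 and 26.6 TPM. CDT1 stood at 36.2, 88.1 and 39.8 TPM in NCI-H2009.

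Lipid synthesis genes lay above the attached level at day 1 and below it at day 7. Of 20 genes of cholesterol synthesis and uptake, 13 were higher past 2-fold at day 1 and 0 lower, with a median of 1.09, and at day 7 the median was -0.80 with 5 genes lower past 2-fold and 0 higher. Between day 1 and day 7, 19 of the 20 were lower past 2-fold, with a median of -1.76. The day 1 medians of the other lines were -0.00 in NCI-H2009, -0.59 in LC-2/ad and -0.24 in HCC4006, and their day 7 medians were -1.24, -0.61 and -0.45. At day 7 NCI-H2228 thus lay within the range of the others, and at day 1 above it. INSIG1, the sterol sensor that holds back SREBP, stood at 27.7, 160 and 13.1 TPM in NCI-H2228. DHCR7, which makes cholesterol in its last step, stood at 110, 367 and 42.4 TPM, against 198, 173 and 145 TPM in HCC4006. In NCI-H2009 INSIG1 stood at 30.2, 52.5 and 9.85 TPM, a peak of smaller size.

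Fatty acid genes followed the same course. Of 11 genes, 6 were higher past 2-fold at day 1 (median 1.37), 3 lower at day 7 against attached (median -0.57), and 8 lower between day 1 and day 7 (median -1.51). SCD, the desaturase that makes monounsaturated fatty acids, stood at 143, 760 and 58.3 TPM in NCI-H2228, against 101, 106 and 36.8 TPM in NCI-H2009, 74.3, 29.3 and 9.11 TPM in LC-2/ad, and 120, 79.7 and 54 TPM in HCC4006. The day 1 library of NCI-H2228 is thus the highest of the 12 for SCD, and the day 7 library is close to those of NCI-H2009 and HCC4006. FADS2, a desaturase of polyunsaturated fatty acids, stood at 183, 639 and 79.6 TPM, and the fatty acid synthase FASN at 1.72, 7.88 and 1.56 TPM. The letters CACCCCAC (GTGGGGTG on the other strand), the core of the first sterol element described, were found in 0 of the 14 cholesterol promoters that matched and in 2.43% of all promoters, which says only that these letters are not in these windows.

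**Figure D3:**
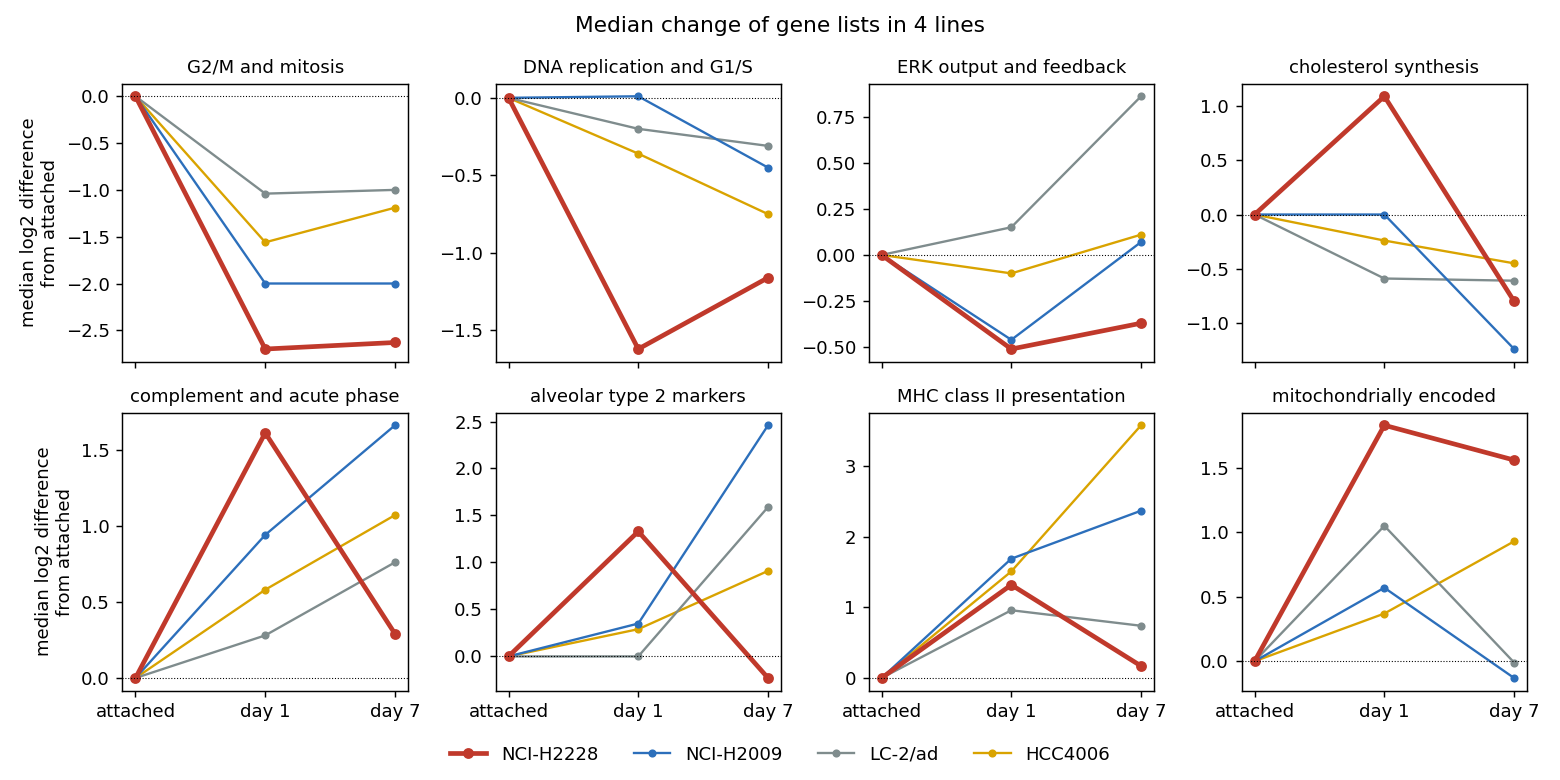
Each panel plots the median log2 difference from the attached library over the members of a gene list, at day 1 and day 7, with 1 line per cell line and 1 library per point. The cholesterol, acute phase, alveolar type 2 and MHC class II medians of NCI-H2228 peak at day 1 (1.09, 1.61, 1.33 and 1.32) and lie at -0.80, 0.29, -0.23 and 0.17 at day 7, while the mitosis and replication medians stay low.

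Complement and acute phase genes, which epithelia make under inflammatory signals, also peaked at day 1. Of 15 such genes, 10 were higher past 2-fold at day 1 and 0 lower, with a median of 1.61, and at day 7 the median was 0.29. SAA1, an apolipoprotein of the acute phase, stood at 271, 2750 and 330 TPM in attached, day 1 and day 7 cells of NCI-H2228. HP, haptoglobin, stood at 23.7, 259 and 40.5 TPM, and the complement protease CFB at 192, 1410 and 504 TPM. SAA1 and SAA2 are near-identical, and their single values are uncertain. In the other lines the same list had medians of 0.94 in NCI-H2009, 0.28 in LC-2/ad and 0.58 in HCC4006 at day 1, and 1.66, 0.76 and 1.07 at day 7. CFB stood at 13, 43.2 and 220 TPM in HCC4006, highest at day 7. SOD2, the mitochondrial superoxide dismutase and a target of NF-kappaB, stood at 211, 2250 and 498 TPM in NCI-H2228 and between 41.7 and 103 TPM in the other 9 libraries. Its day 1 change exceeded that of the other lines by 2.86 (SE 0.46, edgeR adjusted p 0.785; DESeq2 adjusted p 0.000112).

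By list median, MHC class II and type 2 cell genes were highest at day 1 in NCI-H2228 and at day 7 in NCI-H2009 and HCC4006. The 12 genes of MHC class I presentation had medians of 0.82 at day 1 and 0.17 at day 7 in NCI-H2228, against 1.98 and 1.72 in NCI-H2009, 0.42 and 0.63 in LC-2/ad, and 0.68 and 0.95 in HCC4006. Of 10 MHC class II genes, 9 were higher past 2-fold at day 1 in NCI-H2228 (median 1.32), and 0 in either direction at day 7 (median 0.17). CD74, the invariant chain, stood at 1470, 3400 and 2090 TPM in NCI-H2228, against 46.7, 185 and 283 TPM in NCI-H2009, 68.9, 135 and 138 TPM in LC-2/ad, and 789, 1590 and 5090 TPM in HCC4006. All 4 lines were thus higher at day 1 than attached, and only NCI-H2228 was lower at day 7 than at day 1. HLA-DMA, which loads peptide on class II molecules, stood at 335, 863 and 325 TPM in NCI-H2228, and HLA-DQA1 at 42.8, 161 and 72.7 TPM. HLA genes vary between cell lines and are close in sequence, so counts of single loci are uncertain. The day 7 medians were 2.37 in NCI-H2009, 0.74 in LC-2/ad and 3.58 in HCC4006.

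SLC34A2, the phosphate transporter of type 2 cells (chromosome 4, 25648011 to 25678748, plus strand), stood at 575, 2680 and 395 TPM in attached, day 1 and day 7 cells of NCI-H2228. It stood at 0.483, 20 and 372 TPM in NCI-H2009, at 0.757, 1.28 and 25.6 TPM in LC-2/ad, and at 655, 936 and 2290 TPM in HCC4006. The other 3 lines reached their highest level at day 7, NCI-H2228 at day 1. Surfactant protein B, SFTPB, had 4.07, 32.8 and 2.58 TPM in NCI-H2228. LAMP3, a protein of lamellar bodies and mature dendritic cells, was highest at day 7 and stood at 2.28, 10 and 42.8 TPM. Of 10 type 2 markers past the count filter, out of 13, 6 were higher past 2-fold at day 1 (median 1.33) and 8 lower between day 1 and day 7 (median -1.29). The defining markers SFTPC and CLDN18 were at 0 or at no more than 0.024 TPM in NCI-H2228. NKX2-1, the lineage factor of lung epithelium, stood at 29.9, 48.4 and 26.5 TPM; it is named here after its values were seen. The day 7 medians of the list were -0.23 in NCI-H2228, against 2.46 in NCI-H2009, 1.59 in LC-2/ad and 0.91 in HCC4006.

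**Figure D4:**
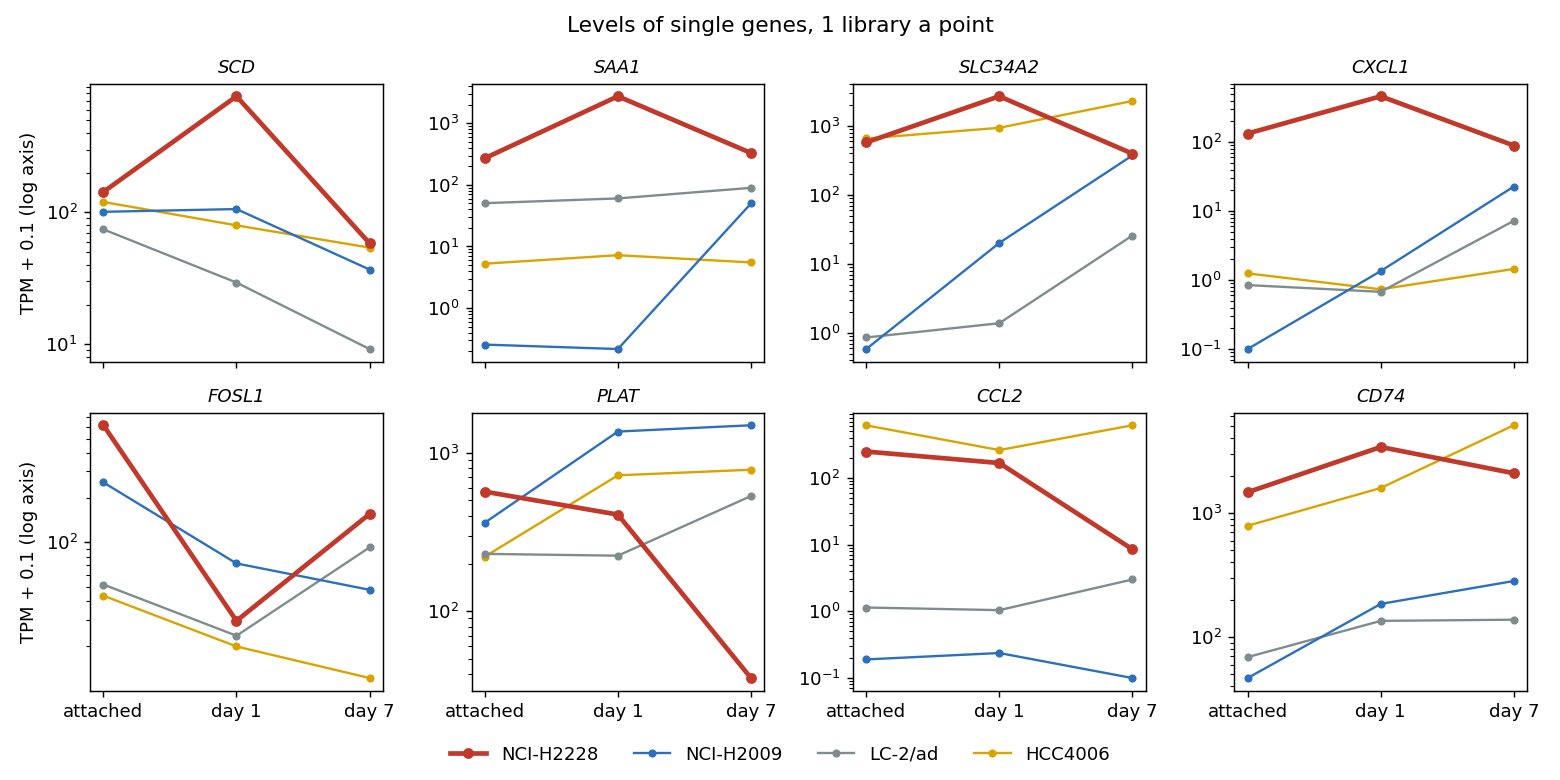
Each panel plots the level of 1 gene as TPM + 0.1 on a log axis in attached, day 1 and day 7 libraries of the 4 lines. SCD, SAA1, SLC34A2, CXCL1 and CD74 are highest at day 1 in NCI-H2228 (760, 2750, 2680, 462 and 3400 TPM), FOSL1 has its lowest NCI-H2228 value at day 1 (29.5 TPM), and PLAT and CCL2 have theirs at day 7 (37.8 and 8.41 TPM).

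Some genes were low at day 7 alone. PLAT, tissue plasminogen activator (chromosome 8, 42174718 to 42207676, minus strand), stood at 568 TPM in attached, 407 TPM at day 1 and 37.8 TPM at day 7 in NCI-H2228. The same gene stood at 362, 1360 and 1490 TPM in NCI-H2009, 230, 224 and 533 TPM in LC-2/ad, and 221, 720 and 781 TPM in HCC4006. The day 7 level of NCI-H2228 was the lowest of the 12 libraries, and each other line was highest at day 7. The change at day 7 was lower than in the other lines by a log2 difference of -5.43 (SE 0.92, edgeR adjusted p 0.735; DESeq2 adjusted p 7.42e-07). PLAT was named for this pattern, so these values describe it. PLAU, the urokinase that serves the same cascade, stood at 1190, 447 and 448 TPM in NCI-H2228, low from day 1, and at 1370, 712 and 1180 TPM at day 7 in NCI-H2009, LC-2/ad and HCC4006.

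CCL2, a chemokine for monocytes (chromosome 17, 34255218 to 34257203, plus strand), stood at 248, 167 and 8.41 TPM in NCI-H2228. HCC4006, the other line that made it, had 613, 261 and 615 TPM, and NCI-H2009 and LC-2/ad did not exceed 2.9 TPM. HAS3, which makes hyaluronan, stood at 20.7, 16.9 and 1.32 TPM, and LYPD6B at 15.7, 10.8 and 0.568 TPM. Both differed past 2-fold between day 1 and day 7 alone, as did FGFBP1, a carrier of fibroblast growth factors, with 33.4, 35.7 and 2.72 TPM, and the matrix protein SPARC, with 223, 187 and 21.8 TPM. DKK1, a WNT antagonist, was past 2-fold lower at each step, with 201, 18 and 2.87 TPM, as was COL1A1, a collagen chain, with 347, 150 and 39.2 TPM. FAP, which is among the fibroblast markers, stood at 29.2, 33.6 and 5.88 TPM beside these genes, and DCN did not exceed 0.248 TPM; their part in the result was not tested.

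At day 7 the test of NCI-H2228 minus the other 3 lines again called 0 genes in edgeR (0%), with 764 (4.39%) below an unadjusted p of 0.05 and a smallest adjusted p of 0.735, against 45 genes (0.313%) in DESeq2, 5 higher and 40 lower in NCI-H2228. Among the lower were CCL2 (edgeR log2 difference -5.32, SE 0.84, adjusted p 0.735; DESeq2 adjusted p 0.000226), HAS3 (-3.56, SE 0.56, adjusted p 0.735; DESeq2 adjusted p 4.37e-05) and C1orf116, an epithelial gene regulated by androgen (-3.78, SE 0.49, adjusted p 0.735; DESeq2 adjusted p 3.81e-08). The ribonuclease RNASE1, the calcium-binding S100A4, DKK1, TSPAN1 and COL1A1 were also called lower by DESeq2. The genes named here were picked by their change or their p in these same libraries. CCL2 was near the floor in NCI-H2009 and LC-2/ad, as given above, so its comparison rests largely on HCC4006. The higher included GAL, a neuropeptide, which stood at 17.8, 35.2 and 34.8 TPM in NCI-H2228 and at 7.11, 5.01 and 4.16 TPM at day 7 in NCI-H2009, LC-2/ad and HCC4006, below their attached 107, 33.4 and 27.4 TPM. They also included RBCK1, a subunit of the linear ubiquitin ligase, with 246, 171 and 1050 TPM in NCI-H2228, and TNFRSF10D, a decoy receptor for TRAIL, with 7.35, 27 and 41.3 TPM. RBCK1 stood between 35.2 and 232 TPM in the other 9 libraries.

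Some genes were highest at day 7, whether or not they were already higher at day 1. UNC5B, a netrin receptor, stood at 6.94, 4.12 and 39.1 TPM in NCI-H2228, and PRPH, a neuronal intermediate filament, at 1.33, 0.711 and 10.2 TPM. MAP2K6, a kinase of the p38 pathway, stood at 3.56, 3.57 and 35.6 TPM, and its estimated counts already differed by 1.09 on the log2 scale at day 1, so that the 2 units part for this gene. S100P, MUC5B and CLGN were past 2-fold higher already at day 1. S100P, a calcium-binding protein of epithelial tumours, stood at 25.8, 227 and 418 TPM, and the airway mucin MUC5B at 1.74, 11 and 21.8 TPM. CLGN, a chaperone of the endoplasmic reticulum, stood at 20.2, 48.1 and 139 TPM. PRSS1 and PRSS2, trypsinogens, were listed at 0 in the attached library and at 10.3 and 16.8 TPM at day 7, but these genes are near-identical and their values uncertain.

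Of 18 genes of the unfolded protein and ATF4 response, 4 were higher and 6 lower past 2-fold at day 1 (median -0.64), and 7 higher and 0 lower between day 1 and day 7 (median 0.48). The chaperone partner DNAJB9 stood at 16.2, 63.6 and 55.3 TPM in NCI-H2228. ASNS, the asparagine synthetase that ATF4 induces when amino acids are short, stood at 99.5, 30.2 and 186 TPM, PSAT1, an enzyme of serine synthesis, at 683, 227 and 1040 TPM, and SESN2, an inhibitor of mTORC1 signalling, at 68.3, 12.3 and 52.5 TPM. NCI-H2009 had the reverse order for ASNS, with 38.9, 89.8 and 19.7 TPM, while LC-2/ad stayed between 83.2 and 83.6 TPM. The medians at day 1 were 1.53 in NCI-H2009, 0.13 in LC-2/ad and 0.29 in HCC4006, and between day 1 and day 7 they were -1.61, 0.03 and -0.02.

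ERK output genes, transcribed when the MAP kinase pathway below ALK, RET or EGFR is active, were low at day 1. Of 16, 7 were lower past 2-fold at day 1 and 0 higher (median -0.51), and at day 7 against day 1, 6 were higher and 1 lower (median 0.55). EPHA2, an ephrin receptor, stood at 88.6, 11.1 and 17.8 TPM, PHLDA1 at 220, 34.6 and 78.4 TPM, and the ERK phosphatase DUSP5, named after its values were seen, at 26.1, 6.5 and 19.1 TPM. The day 1 medians of the other lines were -0.46 in NCI-H2009, 0.15 in LC-2/ad and -0.10 in HCC4006, and the NCI-H2009 value lay close to that of NCI-H2228. The RNA level of ALK stayed within 2-fold, as given above, and these data do not measure ALK protein or its kinase activity.

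Of the 13 protein-coding genes of the mitochondrial genome, 13 were higher past 2-fold at day 1 (median 1.83) and 11 at day 7 (median 1.56). MT-ND3, a subunit of complex I, stood at 59.9, 297 and 389 TPM in NCI-H2228, and MT-CYB, of complex III, at 274, 1110 and 928 TPM. The attached library of NCI-H2228 was the lowest of the 12 for both genes. The medians at day 1 were 0.57 in NCI-H2009, 1.05 in LC-2/ad, where 10 of the 13 were higher past 2-fold, and 0.37 in HCC4006, and 12 or 13 of the 13 lay above the attached level in each of these lines. At day 7 their medians were -0.13, -0.01 and 0.93. Of all genes reaching 5 TPM in LC-2/ad, 3.81% were higher past 2-fold at day 1. Genes of lysosomes and autophagy were higher at day 1 in 11 of 20 cases (median 1.12) and at day 7 in 4 (median 0.47), with NEU1, a lysosomal sialidase, at 29.6, 134 and 45.2 TPM. The medians of this list at day 1 were 1.85 in NCI-H2009, 0.64 in LC-2/ad and 0.34 in HCC4006.

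The change between day 1 and day 7 was shared least with the other lines. This held for each line, by the share past 2-fold in all 3 others. The same share over all genes considered was also lowest at this step in each line. Of the 1055 genes higher at day 1 in NCI-H2228, 5.21% were higher past 2-fold in all 3 other lines and 36.1% in none of them, against 81.1% of all genes considered that were higher past 2-fold in none. Of the 793 lower genes, 7.82% were lower past 2-fold in all 3 others and 46.5% in none, against 79.5% of all genes. Over all genes considered at that step, 0.706% were higher and 0.811% lower past 2-fold in the 3 other lines. For day 7 against attached, 7.36% of the higher and 8.46% of the lower genes were shared with all 3 lines, against 1.07% and 0.787% of all genes. For day 7 against day 1, 3 of the 362 higher genes and 9 of the 878 lower genes were shared with all 3, against 0.297% and 0.23% of all genes, and 67.4% and 68% with none, against 78.7% and 82.8% of all genes. The floor of 5 TPM held for NCI-H2228 alone in these counts, and a gene could be near 0 in another line. Counted from each other line with its own floor, the share with all 3 was also lowest between day 1 and day 7. The shares were 0.147% of higher and 0.84% of lower genes in NCI-H2009, against 0.036% and 0.153% of all genes. They were 0.485% and 3.05% in LC-2/ad, against 0.0486% and 0.155%, and 0.339% and 5.95% in HCC4006, against 0.162% and 0.467%. Shares with none were 79.7% and 72.1% in NCI-H2009, against 90.3% and 86.6% of all genes. They were 43.9% and 30.5% in LC-2/ad, against 79.2% and 78.9%, and 47.5% and 34.5% in HCC4006, against 78.3% and 77.9%.

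**Figure D5:**
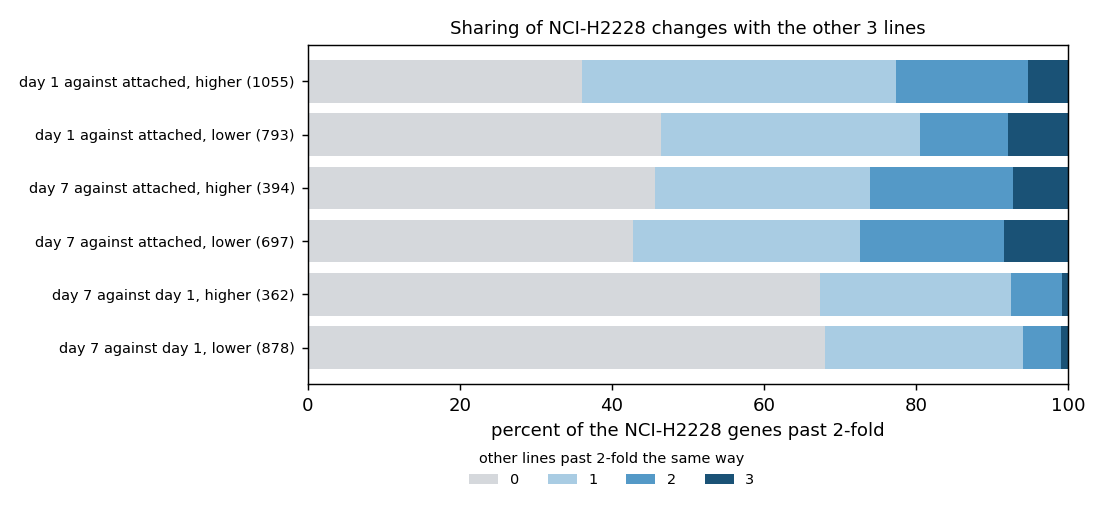
Bars split the NCI-H2228 genes past 2-fold at each step and direction, with their number in brackets, by how many of the other 3 lines were past 2-fold the same way. The share with none is 36.1% and 46.5% at day 1 against attached and 67.4% and 68% at day 7 against day 1, where 81.1%, 79.5%, 78.7% and 82.8% of all genes considered were past 2-fold that way in none of the 3 lines.

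Across genes, the NCI-H2228 differences at day 1 correlated with those of NCI-H2009, LC-2/ad and HCC4006 at Pearson's r of 0.42, 0.43 and 0.44 over 11384 to 11705 genes, close to the 0.40 to 0.48 among the other lines. At day 7 against attached they were 0.25, 0.24 and 0.31, against 0.31 to 0.56 among the others. Between day 1 and day 7 they were 0.01, 0.06 and -0.11, against 0.12 to 0.34 among the others. Genes are not independent and each value rests on 2 libraries a line, so these describe the libraries.

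The fitted change of the other 3 lines was then set beside these genes. It called 0 genes in edgeR at each step (0% of 17395), with 2591, 2659 and 1862 genes below an unadjusted p of 0.05 at day 1, at day 7 and between them, against 777, 1068 and 246 called by DESeq2. Among the 1055 early rises of NCI-H2228, 34.1% had an unadjusted edgeR p below 0.05 in the same direction in the other 3 lines. Of all genes considered, 9.74% had one. In the opposite direction the share was 0.758%, against 9.21% of all genes. Among the 793 early falls, 37.5% had such a p in the same direction, against 9.21% of all genes. The opposite share was 1.39%, against 9.74%. For day 7 against day 1, 8.01% of the NCI-H2228 rises and 7.52% of its falls had such a p in the same direction. These shares lay close to the 6.46% and 6.02% of all genes. The opposite shares were 5.8% and 7.86%, close to the 6.02% and 6.46% of all genes. These are counts below an unadjusted threshold, with no test of the share.

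Among changes shared by the 4 lines, CAV1, the coat protein of caveolae, stood at 263, 34.3 and 34.4 TPM in attached, day 1 and day 7 cells of NCI-H2228, against 452, 47.7 and 15.3 TPM in NCI-H2009, 737, 94.5 and 76.3 TPM in LC-2/ad, and 159, 50.9 and 8.9 TPM in HCC4006. Attached cells were the highest in each line. NCI-H2228 reached its low level at day 1, and NCI-H2009 and HCC4006 stood lower again at day 7. In the other 3 lines the log2 change at day 7 was -4.13 (SE 0.53, edgeR adjusted p 0.0832), and the difference of NCI-H2228 from it was 1.3 (SE 0.94, edgeR adjusted p 1). AXL, a receptor tyrosine kinase and YAP target, stood at 31.9, 5.19 and 5.55 TPM in NCI-H2228 and was lower past 2-fold at both times in all 4 lines. Of 22 YAP and TAZ targets, 10 were lower and 1 higher past 2-fold in NCI-H2228 at day 1 (median -0.97), and 12 lower and 0 higher at day 7 (median -1.17). CCN2, a matricellular protein of this list, stood at 9.61, 1.65 and 4.05 TPM, and F3, tissue factor, at 190, 41.2 and 28 TPM. The YAP medians of the other lines ran from -0.99 to -0.58 at day 1 and from -1.52 to -0.67 at day 7.

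Several shared increases peaked at day 1 in NCI-H2228. CEACAM5, the carcinoembryonic antigen, stood at 20.1, 82.6 and 49.9 TPM in NCI-H2228, against 3.52, 145 and 1680 TPM in NCI-H2009, 2.41, 12 and 192 TPM in LC-2/ad, and 30.4, 153 and 290 TPM in HCC4006. NCI-H2228 peaked at day 1 and the others at day 7. The difference in the day 7 change was -4.54 (SE 1.7, edgeR adjusted p 1; DESeq2 adjusted p 0.131). CHI3L1, a chitinase-like glycoprotein, had 287, 3100 and 689 TPM in NCI-H2228, and SELENOP, which carries selenium, had 92.5, 828 and 97.5 TPM. LCN2, an iron-siderophore binder of epithelia, is an exception and held its level in NCI-H2228, with 325, 1830 and 1620 TPM. DEPP1, a target of FOXO factors, stood at 4.43, 42.5 and 21.2 TPM.

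Between day 7 and day 1, NCI-H2228 minus the other 3 lines gave 0 genes in edgeR (0%), 1230 genes (7.07%) below an unadjusted p of 0.05 and a smallest adjusted p of 0.514, and 110 genes (0.766%) in DESeq2, 22 higher and 88 lower in NCI-H2228. CST1 differed by -7.80 (SE 1.35, edgeR adjusted p 0.514; DESeq2 adjusted p 1.77e-06). SGK1, a kinase regulated by glucocorticoids and serum, stood at 22.9, 70.1 and 17.1 TPM in NCI-H2228 and differed by -2.72 (SE 0.40, edgeR adjusted p 0.514; DESeq2 adjusted p 6.57e-06). The other lines had 189, 44.6 and 6.31 TPM of SGK1 at day 7, each above its own day 1 level. SEMA3C, a secreted guidance protein, stood at 23.7, 37.2 and 9.95 TPM and differed by -3.27 (SE 0.55, edgeR adjusted p 0.514; DESeq2 adjusted p 9.2e-05).

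A few genes were past 2-fold the same way in the 4 lines between day 1 and day 7. TFF1, a trefoil peptide of mucous cells, stood at 7.17, 93.9 and 7.44 TPM in NCI-H2228 and at 8.72, 26.3 and 2.62 TPM in HCC4006, and did not exceed 1.16 TPM in NCI-H2009 and 2.85 TPM in LC-2/ad, where it was listed at 0 at day 7. ID2, an inhibitor of differentiation factors, stood at 16.4, 45.8 and 18.6 TPM in NCI-H2228, and UQCC3, an assembly factor of complex III, at 18, 6 and 20.9 TPM. With the floor of 5 TPM held in NCI-H2228 alone, there were 12 such genes, against 117 at day 1 and 88 at day 7 relative to attached cells.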

How the data were processed

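RNA of 12 cultures, 4 lung adenocarcinoma lines in 3 states, was, per the labels, extracted with RNeasy columns and amplified with SMART-Seq v4 PLUS reagents. The authors deposited 1 table of 60715 genes with estimated counts and TPM for each library, on GRCh38 per the submitters' processing notes. Aligner and counting tool: not given in the sources used here. TPM, as deposited, sums to 1000000 in each library and is used for levels. The deposited estimated counts, of which 31.5% above 0 were not whole, were rounded and scaled with TMM factors; genes past edgeR's filter on low counts (17395) were tested. Differences within NCI-H2228 are in log2 CPM, for which the prior count was 2. The test (edgeR 4.0.16, R 4.3.3, robust quasi-likelihood, Benjamini-Hochberg adjustment) took the 12 libraries with state, cell line and the interaction of state with NCI-H2228, and left 4 residual degrees of freedom with a common biological coefficient of variation of 37.9%; its p-values measure the spread among the other 3 lines. The SE beside an edgeR difference is the size of that difference divided by the square root of the test's F statistic. The cell line is the block, since the 3 states of a line come from the same line. DESeq2 1.42.0 was an alternative. The scripts were also run on simulated counts with the same dispersion for every gene, which do not show the power of the test on these libraries. Precision is limited by 1 library per line and state.

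The 35 gene lists and the genes in them were chosen with earlier results of these data known. Named genes are protein-coding with at least 10 TPM: the largest changes of each step (10 a direction for the steps from attached, 5 for the step from day 1 to day 7), the 10 smallest p-values per step, the 5 largest shared changes a direction, up to 5 opposite genes, and the 3 largest of each course. Up to 4 members of a list, markers of other cell types and ALK were also named, not all of which reach 10 TPM. FASN, CCN2, HOPX and ALK are among those below it in NCI-H2228. Genes with near-identical copies, such as PRSS1 and PRSS2, CST1 and CST4, SAA1 and SAA2, HLA genes, histones, HP and ANXA8, are uncertain.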

Additional observations from a re-analysis of the deposited data

Results flagged for a closer look

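The median of 8 alveolar type 1 markers at day 7 against attached was -2.08 in NCI-H2228, against 0.34 in NCI-H2009, 0.34 in LC-2/ad and 0.37 in HCC4006, and its gap to the nearest line exceeded Dixon's critical value for 4 samples. Chance gives such a gap for any of the 4 lines in about 1 in 20 groups, and less often for a line set in advance. In 105 groups of list and step, only gaps of NCI-H2228 were looked at, and 1 was flagged, the group given here. With so many groups, a single flag can arise by chance, so it does not mark these markers as a true outlier. Several of these markers are low in NCI-H2228, and on the log2(TPM + 1) scale its median was -0.70. HOPX, a homeodomain protein of this list, stood at 8.54, 8.54 and 1.32 TPM in attached, day 1 and day 7 cells of NCI-H2228.

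At day 7 against attached, 4 named genes were past 2-fold in NCI-H2228 and past 2-fold the other way in each of the other 3 lines. The log2 differences in NCI-H2228 were -3.88 for PLAT, -1.40 for PLAU, -1.10 for TSPAN1 and 1.03 for GAL. The edgeR difference from the other lines was -5.43 for PLAT, -2.85 for PLAU, -3.03 for TSPAN1 and 4.24 for GAL, with adjusted p of 0.735, 1, 1 and 0.735, and DESeq2 gave adjusted p of 7.42e-07, 0.319, 0.00529 and 0.00016.

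At day 7 against day 1, 5 named genes were opposite in this way, with NCI-H2228 log2 differences of -3.32 for SLC6A14, an amino acid transporter, -2.91 for SLC34A2, -2.48 for CXCL1, a chemokine for neutrophils, -1.96 for PIGR and -1.41 for FMO5, a flavin monooxygenase. The edgeR adjusted p of the difference was 0.704 for SLC6A14, 0.702 for SLC34A2, 0.701 for CXCL1 and 0.688 for PIGR and FMO5, and the DESeq2 adjusted p was 0.401, 0.555, 0.516, 0.296 and 0.0987 in the same order. CXCL1 stood at 133, 462 and 89.2 TPM in attached, day 1 and day 7 cells of NCI-H2228, against 0, 1.25 and 22.6 TPM in NCI-H2009, 0.746, 0.575 and 7.12 TPM in LC-2/ad, and 1.15, 0.635 and 1.35 TPM in HCC4006. These genes were chosen for the opposite direction.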

How the results depend on the processing

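Each state of a line is 1 library, detachment cannot be told apart from trypsin, replating and time, and the tests assume that NCI-H2228 varies like the other lines. With a floor of 1 TPM, 2939 genes were past 2-fold at day 1, 1988 at day 7 and 2235 between them, and at 3-fold the counts were 769, 432 and 461. Of genes shared by the 4 lines, a floor of 1 TPM left 179 at day 1 and 32 between day 1 and day 7, 3-fold left 21, 14 and 2 at the 3 steps, and log2(TPM + 1) left 47 at day 7 and 6 between day 1 and day 7. Leaving out 1 other line gave 158 to 266 shared genes at day 1, 110 to 186 at day 7 and 16 to 60 between them, since fewer lines must then agree; without LC-2/ad they were 203, 186 and 27, and without HCC4006 266, 174 and 60. DESeq2 called 64, 45 and 110 genes for NCI-H2228 minus the other 3 lines and 777, 1068 and 246 in the other 3 lines, against 0 in edgeR. With no filter on low counts edgeR called 1 gene at day 7 for NCI-H2228 minus the others and 34, 93 and 1 genes in the other 3 lines, and the cause was not tested. Leaving out 1 other line gave 0 to 3 genes in the other 3 lines at day 7 (3 without NCI-H2009) and 0 at the other steps and in the difference of NCI-H2228. With no replicate block the edgeR count was 0 at each step. The count was also 0 with the block, so it cannot show whether pairing the states by cell line matters. At 3-fold, 552 genes were early and kept, 213 turned back, 11 continued and 252 were late, and with log2(TPM + 1) 17 continued. PAPPA2 at day 1 against attached turned to -0.44 with log2(TPM + 1), against 1.43, and the cause was not tested. DESeq2 size factors moved none of the 105 list medians by more than the SD of the other lines' medians and none of the 288 differences of named genes by more than its counting interval, library totals moved 5 and 69, and log2(TPM + 1) moved 17 and 160.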

Other observations

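Of 17 interferon-stimulated genes, 6 were lower and 0 higher past 2-fold at day 7 (median -0.37), against medians of 1.05 in NCI-H2009, 0.26 in LC-2/ad and 0.30 in HCC4006. IFI6, an interferon-induced protein of mitochondria, stood at 71, 87.3 and 28.2 TPM in attached, day 1 and day 7 cells of NCI-H2228. Of 15 NF-kappaB targets and cytokines, 4 were higher past 2-fold at day 1 and 0 lower (median 0.55), and at day 7 against attached 1 was higher and 2 lower (median -0.47), near the shares of all genes. The 15 genes lay lower at day 7 than at day 1, 6 of them past 2-fold (median -0.62). CCL20, a chemokine of mucosal surfaces, stood at 15.9, 187 and 31.5 TPM, and NFKBIA, the inhibitor of NF-kappaB, at 147, 370 and 183 TPM.

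Secretory and ciliated cell markers lay above the attached level by list median, and the 6 basal cell markers past the count filter lay below it (-0.40 at day 1 and -0.89 at day 7). Of 9 secretory markers past the count filter, out of 14, 6 were higher past 2-fold at day 1 (median 2.06) and 4 at day 7 (median 0.64) in NCI-H2228, against day 7 medians of 2.84 in NCI-H2009, 1.86 in LC-2/ad and 1.14 in HCC4006. Of 8 ciliated cell markers past the count filter, out of 12, 2 were higher and 1 lower past 2-fold at day 1 (median 0.47) and 5 higher and 1 lower at day 7 (median 1.13), against day 7 medians of 2.27 in NCI-H2009, 1.33 in LC-2/ad and 0.60 in HCC4006. Hypoxia genes had a median of 0.77 at day 1 and 0.17 at day 7 in NCI-H2228, against 1.72 and -0.32 in NCI-H2009, 0.63 and 0.32 in LC-2/ad, and 0.46 and 0.17 in HCC4006. Of 17 extracellular matrix genes, 17 lay lower at day 7 than at day 1 in NCI-H2228 and 6 past 2-fold (median -0.75), and the medians of the other lines were -0.70, -0.53 and -0.30.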
